A study of Mus musculus with 17 samples.

Results

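The genes described here are 10 markers of lipid-laden macrophages: Gpnmb, Trem2, Itgax, Lgals3, Cd9, Cd63, Acp5, Msr1, Clec7a and Lipa. Their probes were found on an Agilent mouse array by gene name or alias. The names matched 18 of 41174 probes, 13 of these were bright enough to test, and all 10 genes are among the 18133 genes tested. The tissue was epididymal fat, which lies next to the testis, of wild-type C57BL/6J males studied as adults. For 13 weeks they ate a purified diet that drew 30% of its energy from fat and whose carbohydrate was either of low (LGI, 8 mice) or of high glycemic index (HGI, 9 mice), meaning that it lifts blood glucose slowly or fast. Each array carried the Cy5-labelled RNA of 1 mouse beside a Cy3-labelled pool made from the samples of both diets. Levels below are log2 ratios of a mouse to that pool, and differences are the HGI mean less the LGI mean on that scale, each with its standard error (SE) from limma. Both diets were high in fat and no low-fat group was analysed here.

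Macrophages of growing fat gather around dying adipocytes, in groups called crown-like structures, and take up the lipid that these cells release. They break it down in lysosomes, and macrophages filled with lipid in this way carry a recognizable set of surface and lysosomal proteins. Gpnmb and Trem2 are among its best known markers, and Itgax, which encodes the integrin CD11c, is the classical surface marker of such cells in obese mice. Other members, such as Cd63, Cd9, Acp5 and Lipa, are also made by other cells of fat, and in pieces of whole tissue fewer cells of a type and less RNA per cell cannot be told apart.

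All 10 adipocyte markers examined, among them Adipoq and Plin1, were well above background on all 17 arrays, as the tissue label requires. The arrays of mice HGI 9 and HGI 10 stood apart: the mean level of 8 seminal vesicle genes was 1.70 and 1.66 there and -4.23 to -3.92 on the other 15 arrays. Results are therefore given with and without these 2 mice. The share of gene spots well above the Cy5 background ran from 54.2% to 66.7%, and precision is limited by how many arrays there are. The labels number the samples without further detail on the animals, so a p-value reflects only how much these samples vary, which may in part be technical.

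No member passed an adjusted p of 0.05 between the diets in limma, and neither did any other of the 18133 genes (0%), the smallest adjusted p being 0.152. By unadjusted p under 0.05, 1 of the 10 members was higher in HGI, where 3.97% of all genes were, and 0 of 10 were lower, where 3.77% of all genes were. The members were chosen with earlier results of these data known, so shares set beside all genes, here and below, are a description only. Of the members, 8 had a difference above 0, against 52.6% of all genes, and 4 had one of at least 0.3, against 1.64%. These 4 were Gpnmb, Trem2, Lgals3 and Cd9, and Cd9 was at 0.02 without HGI 9 and HGI 10. Their SD over the 17 mice was 0.37 to 0.54, against a median of 0.17 over all genes, and genes that vary more pass a fixed cut more easily. The median difference was 0.25 over the 10 members and 0.01 over all genes tested. In none of the members did the 2 diets separate, and they did so in 0.0386% of all genes. Without HGI 9 and HGI 10, 4 of the 10 members (Gpnmb, Trem2, Lgals3 and Lipa) were higher in HGI at an unadjusted p under 0.05, against 5.04% of all genes, 0 were lower, against 2.75%, and none passed an adjusted one.

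**Figure D1:**
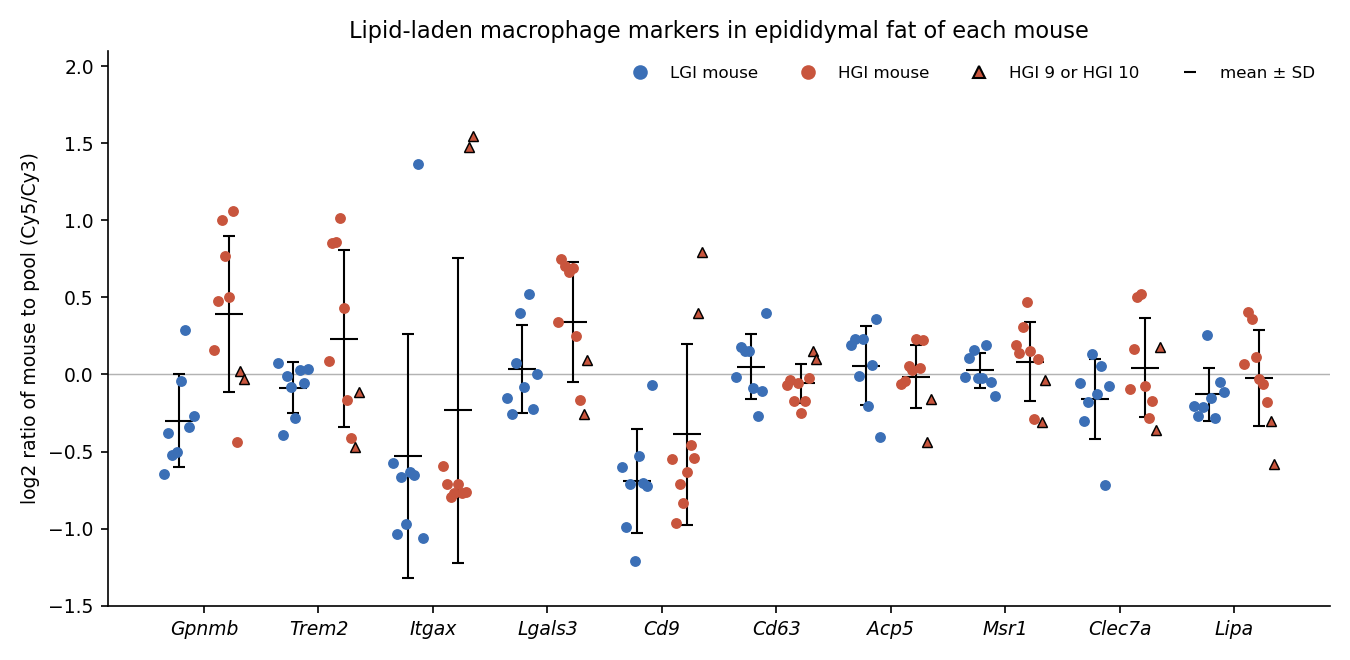
Log2 ratio to the pool (y axis) of the 10 markers (x axis) in each mouse, with blue points for LGI (n = 8), red points for HGI (n = 9), triangles for HGI 9 and HGI 10, and black bars for mean ± SD. Gpnmb in HGI spans -0.44 to 1.06, while the brighter Itgax probe is high in only 3 mice, at 1.37 to 1.54.

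For the 5 members whose levels are set beside each other most often below, the 250 bases before the annotated start of the gene are shown, from RefSeq on assembly GRCm38.p6, 5′ to 3′ on the gene's own strand. They are chr6:49036268-49036517 (Gpnmb, plus strand), chr17:48346151-48346400 (Trem2, plus strand), chr14:47373610-47373859 (Lgals3, plus strand), chr6:129472786-129473035 (Clec7a, minus strand, the outer of 2 annotated starts) and chr7:128129300-128129549 (Itgax, plus strand). Capitals mark exact matches, on either strand, to GAGGAA, a core bound by the macrophage factor PU.1, or to TGANTCA, the AP-1 site.
Gpnmb: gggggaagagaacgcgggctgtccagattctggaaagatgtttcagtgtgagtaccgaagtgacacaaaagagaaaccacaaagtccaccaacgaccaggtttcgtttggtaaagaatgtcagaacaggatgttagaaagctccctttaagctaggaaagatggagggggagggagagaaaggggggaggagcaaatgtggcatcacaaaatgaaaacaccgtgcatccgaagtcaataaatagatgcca
Trem2: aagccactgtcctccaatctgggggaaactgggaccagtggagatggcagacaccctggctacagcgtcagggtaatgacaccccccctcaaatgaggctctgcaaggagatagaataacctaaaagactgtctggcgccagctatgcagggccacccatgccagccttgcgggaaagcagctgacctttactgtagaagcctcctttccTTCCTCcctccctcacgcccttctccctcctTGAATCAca
Lgals3: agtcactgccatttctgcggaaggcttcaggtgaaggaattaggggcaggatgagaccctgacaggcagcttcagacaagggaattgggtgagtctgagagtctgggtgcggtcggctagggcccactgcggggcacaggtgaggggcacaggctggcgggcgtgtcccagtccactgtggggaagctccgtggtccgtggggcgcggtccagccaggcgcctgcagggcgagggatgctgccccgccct
Clec7a: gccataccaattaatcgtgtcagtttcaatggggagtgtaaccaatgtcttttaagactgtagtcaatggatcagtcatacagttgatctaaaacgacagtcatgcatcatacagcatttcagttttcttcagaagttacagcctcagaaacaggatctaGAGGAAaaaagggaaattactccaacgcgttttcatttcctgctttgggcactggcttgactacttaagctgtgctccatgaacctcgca
Itgax: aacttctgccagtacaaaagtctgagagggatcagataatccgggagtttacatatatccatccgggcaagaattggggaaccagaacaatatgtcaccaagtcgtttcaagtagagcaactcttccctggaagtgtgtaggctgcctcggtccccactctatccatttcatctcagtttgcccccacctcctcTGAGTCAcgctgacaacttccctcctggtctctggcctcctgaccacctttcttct
Windows were at hand for 9 of the 10 members, and 4 motifs that do not overlap one another were searched. TGANTCA lies in the windows of Trem2 (from base -9, counted back from the start) and Itgax (from base -56), 2 of 9 members, and in 7.82% of all 27025 genes with a window. GAGGAA lies in those of Trem2, Cd63, Clec7a and Lipa, 4 of 9 members, against 25.9% of all genes. CACGTG, the E-box bound by the lysosomal factors of the MiT/TFE family, was in 0 of 9, against 6.86%, and its variant CATGTG was in Cd9 and Acp5, against 13.8%. No match was found in the windows of Gpnmb and Lgals3. Such a match describes letters only and does not show that a factor binds.

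Gpnmb encodes a transmembrane glycoprotein of late endosomes and lysosomes that fat macrophages switch on when they load lipid. Its level was lowest at -0.65, had a median of -0.36 and was highest at 0.29 in LGI, and the same values in HGI were -0.44, 0.48 and 1.06. In HGI, 8 of 9 mice lay above the LGI median and 5 above the highest LGI mouse, with HGI 6, HGI 3 and HGI 4 on top, while HGI 7 lay among the LGI mice. The mean was -0.30 ± 0.30 (SD, n = 8) in LGI and 0.39 ± 0.51 (SD, n = 9) in HGI. The difference was 0.69 ± 0.18, a 1.62-fold higher level in HGI, with a 95% interval from 0.31 to 1.07. Its limma adjusted p was 0.522, and by unadjusted p (0.00103) it ranked 27 of 18133 genes. HGI 9 and HGI 10, at 0.02 and -0.03, sat in the lower part of HGI, and without them the difference was 0.80 ± 0.18 (limma adjusted p 0.265). It was 0.52 on the 8 arrays scanned first and 0.87 on the 9 scanned later. A second Gpnmb probe was not well above background on any array.

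Trem2 is a lipid-sensing receptor that signals through the adaptor Tyrobp. Its level ran from -0.39 over a median of -0.03 to 0.07 in LGI and from -0.47 over 0.09 to 1.01 in HGI. The LGI mice lay close together and the HGI mice spread widely: HGI 2, HGI 3 and HGI 4 stood at 0.85 to 1.01 and HGI 5 at 0.43, whereas HGI 7 and HGI 9 lay below every LGI mouse. The difference was 0.32 ± 0.19 (limma adjusted p 0.713), and 0.47 ± 0.17 without HGI 9 and HGI 10 (limma adjusted p 0.546). A second, dimmer Trem2 probe gave 0.21 ± 0.12 and followed the first across mice (r = 0.797).

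Clec7a encodes dectin-1, a receptor for fungal β-glucans that, like the Trem2 complex, signals through the kinase Syk. In LGI its level ran from -0.72 over a median of -0.10 to 0.13, and in HGI from -0.36 over -0.08 to 0.52. HGI 3 and HGI 4, at 0.50 and 0.52, were the highest mice, and the diets overlapped through most of their range. The difference was 0.20 ± 0.13 (limma adjusted p 0.731), and 0.24 ± 0.13 without HGI 9 and HGI 10. It was 0.0036 ± 0.10 in the authors' deposited log2 values and 0.36 ± 0.23 in the scanner software's processed signals, so its size depends on the processing.

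Msr1, the class A scavenger receptor that takes up modified lipoproteins, was the dimmest member. Its probe was well above background on 4 of 8 LGI and 5 of 9 HGI arrays, so its ratios are the least certain. They ran from -0.14 to 0.19 in LGI and from -0.31 to 0.47 in HGI, with a difference of 0.06 ± 0.09 (limma adjusted p 0.912), and 0.13 ± 0.09 without HGI 9 and HGI 10.

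Itgax was measured by 2 probes that did not behave alike. The brighter one, designed on the cDNA AK089167, stands for the gene here by the fixed rule that the brightest tested probe does. It was matched to Itgax by gene name only, not by accession, and its identity could not be checked. It was high in LGI 8 (1.37), HGI 9 (1.47) and HGI 10 (1.54), and between -1.06 and -0.58 in the other 14 mice. Its difference of 0.296 ± 0.38 (limma adjusted p 0.866) became -0.20 ± 0.25 without HGI 9 and HGI 10. The dimmer one, designed on the RefSeq transcript NM_021334, ran from -0.53 over a median of -0.35 to 0.16 in LGI and from -0.37 over 0.17 to 0.64 in HGI. On it 8 of 9 HGI mice lay above the LGI median and 5 above the highest LGI mouse, as for Gpnmb. Its difference was 0.43 ± 0.13 (limma adjusted p 0.559 over all tested probes), and 0.52 without HGI 9 and HGI 10. In the 3 mice that were high on the brighter probe, LGI 8, HGI 9 and HGI 10, the dimmer one read -0.41, -0.19 and -0.12. Across the 17 mice the dimmer one correlated with Gpnmb at r = 0.945, and at 0.947 without HGI 9 and HGI 10. This second probe was looked at in detail after its values were seen. With it standing for Itgax, 2 of the 10 members had an unadjusted p under 0.05 in limma. Of the 3 mice that were high on the brighter probe, 2 are those that stand apart in seminal vesicle genes and LGI 8 is not, and the part of those transcripts in the value was not tested. The mean of 5 measured dendritic cell markers, of 8 on the array, was also highest in HGI 9 (0.33) and HGI 10 (0.28), against -0.11 to 0.13 in the other 15 mice, and that of 6 osteoclast markers was 0.28 and 0.25 there, against -0.07 to 0.10. Between the diets these lists did not move as a whole. Xcr1 differed by 0.44 ± 0.30 and the other measured dendritic cell markers by -0.07 to 0.06. Ocstamp differed by 0.23 ± 0.19 and the other osteoclast markers by -0.11 to 0.07. Which of these markers were high in HGI 9 and HGI 10 was not looked at, and whether these 2 mice held more such cells was not tested.

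**Figure D2:**
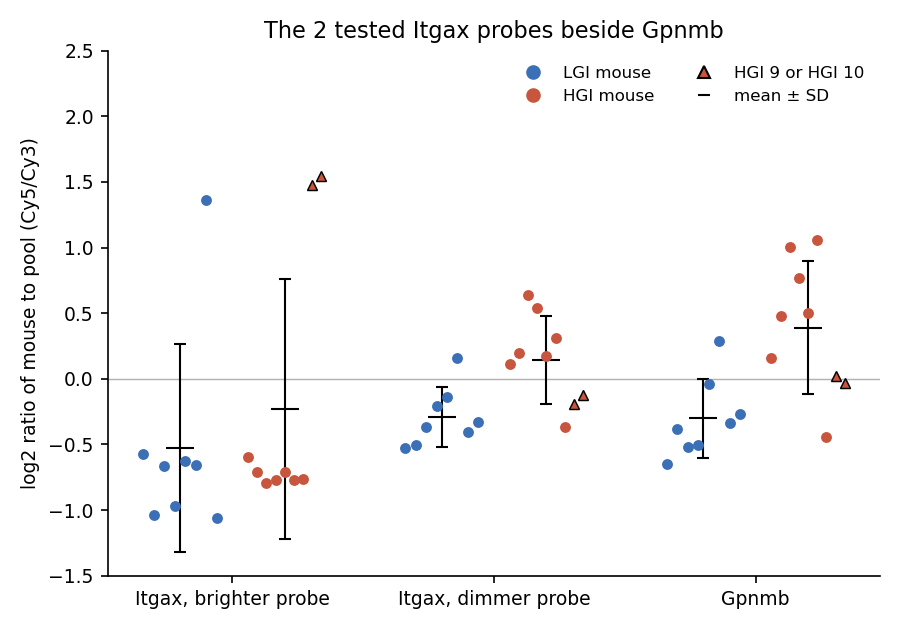
Log2 ratio to the pool (y axis) on the brighter and the dimmer tested Itgax probe and on the Gpnmb probe (x axis) in each LGI (blue, n = 8) and HGI (red, n = 9) mouse, with triangles for HGI 9 and HGI 10 and black bars for mean ± SD. The brighter Itgax probe is at 1.37 to 1.54 in 3 mice and at -0.58 or lower in the others, while the dimmer one spreads over -0.53 to 0.64 in the way Gpnmb does.

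Lgals3, which encodes the sugar-binding protein galectin-3, ran from -0.26 over a median of -0.04 to 0.52 in LGI and from -0.25 over 0.34 to 0.75 in HGI. In HGI, 7 of 9 mice lay above the LGI median, and HGI 2, HGI 3, HGI 4 and HGI 5, at 0.66 to 0.75, lay above every LGI mouse. The difference was 0.31 ± 0.15 (limma adjusted p 0.649), and 0.43 ± 0.14 without HGI 9 and HGI 10 (limma adjusted p 0.526).

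The tetraspanins Cd9 and Cd63, small membrane organizers, had differences of opposite sign. Cd9 ran from -1.21 over a median of -0.71 to -0.07 in LGI and from -0.96 over -0.55 to 0.80 in HGI. Only HGI 10 (0.80), HGI 9 (0.40) and LGI 9 (-0.07) lay above the rest. The difference of 0.30 ± 0.21 (limma adjusted p 0.755) was 0.02 ± 0.12 without HGI 9 and HGI 10, and 0.06 ± 0.07 on a second probe. Cd63, a protein of late endosomes that most cells make, had a difference of -0.11 ± 0.08 (limma adjusted p 0.775), or -0.16 ± 0.08 without the same mice, with 2 of 9 HGI mice above the LGI median and the highest value, 0.40, in LGI 9.

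Acp5, tartrate-resistant acid phosphatase, and Lipa, the lysosomal acid lipase that frees cholesterol and fatty acids from taken-up lipid, are the enzymes among the members. Acp5 ran from -0.41 to 0.36 in LGI and from -0.44 to 0.23 in HGI, with a difference of -0.07 ± 0.10 (limma adjusted p 0.891) that was 0.01 ± 0.10 without HGI 9 and HGI 10. Lipa ran from -0.28 to 0.25 in LGI and from -0.58 to 0.41 in HGI. Its difference of 0.11 ± 0.11 (limma adjusted p 0.843) was 0.23 ± 0.09 without HGI 9 and HGI 10, its 2 lowest mice at -0.30 and -0.58 (limma adjusted p 0.572).

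**Figure D3:**
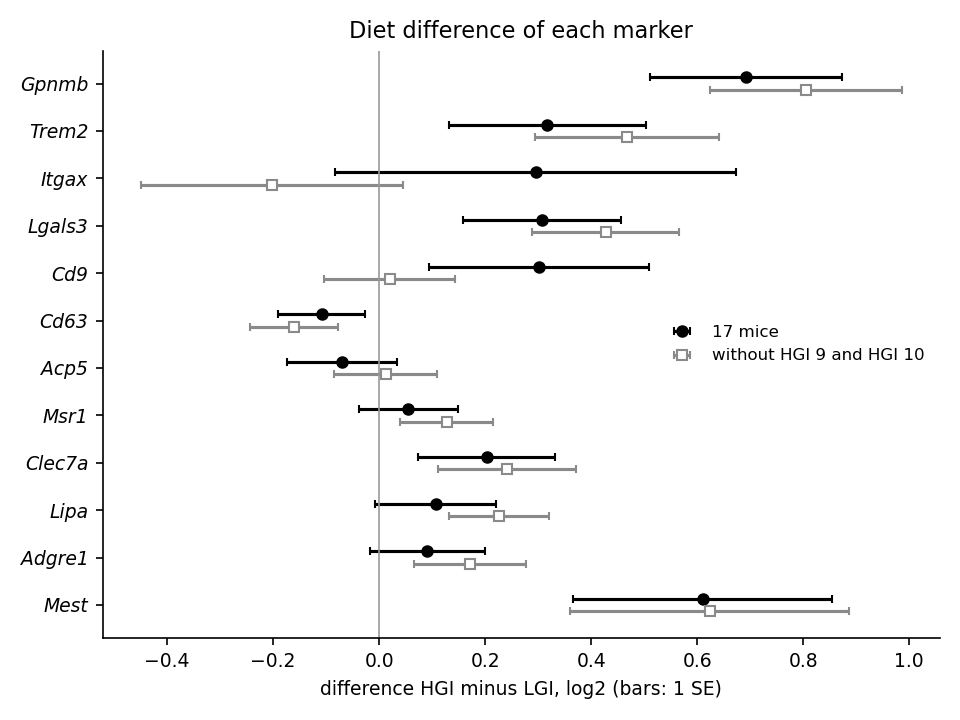
Difference HGI minus LGI on the log2 scale (x axis) of the 10 markers and of Adgre1 and Mest (y axis), with bars of 1 SE, over all 17 mice (filled circles) and without HGI 9 and HGI 10 (open squares). Gpnmb lies at 0.69 and 0.80, whereas Itgax moves from 0.30 to -0.20 and Cd9 from 0.30 to 0.02.

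The members did not vary as 1 block across the mice. The values here are Pearson correlations over 17 arrays, given as a description without a test. Trem2 and Lgals3 went together most closely (r = 0.831), followed by Lgals3 with Clec7a (0.728), Trem2 with Clec7a (0.722), Gpnmb with Lgals3 (0.711) and Trem2 with Msr1 (0.692). Gpnmb and Trem2 correlated at 0.604. These values included the difference between the diets; over deviations from the diet means Trem2 with Lgals3 was at 0.803, Gpnmb with Lgals3 at 0.630 and Gpnmb with Trem2 at 0.521. Mouse HGI 6 had the highest Gpnmb (1.06) but only -0.16 for Trem2 and 0.25 for Lgals3. Cd63 ran opposite to Gpnmb (-0.584), Acp5 stood at -0.114 with it, and Cd9 ran opposite to Acp5 (-0.666) and Lipa (-0.653). Without HGI 9 and HGI 10, which had the highest Cd9 and the lowest Lipa, Cd9 stood at -0.587 with Acp5 and at -0.392 with Lipa. The brighter Itgax probe is left out of these pairs, since its values fell into separate clusters.

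**Figure D4:**
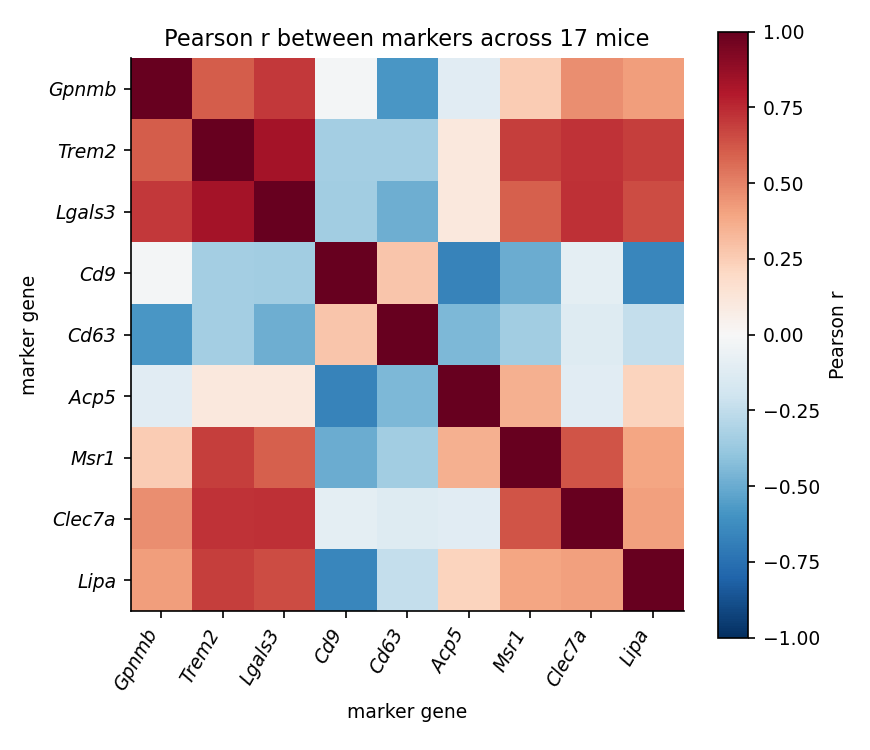
Pearson r between the log2 ratios of each pair of markers across 17 mice, coloured from -1 (blue) to 1 (red), with both axes listing 9 markers, Itgax left out. All pairs among Gpnmb, Trem2, Lgals3, Msr1, Clec7a and Lipa are above 0 (red), from 0.254 for Gpnmb with Msr1 to 0.831 for Trem2 with Lgals3. Cd9, Cd63 and Acp5 lie outside that group.

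Adgre1, long known as Emr1, encodes F4/80, a surface protein of most mouse macrophages, and served as a measure of macrophage content. Its own difference was 0.09 ± 0.11 (limma adjusted p 0.860). Correlations of the 10 members with Adgre1 and with Mest, 20 relations in all, were tested by two-sided permutation with 100000 resamples, adjusted over the 20. With Adgre1, 6 of 10 members had r of at least 0.5, against 7.00% of all genes, and 5 passed an adjusted p of 0.05. Trem2 reached r = 0.769 (permutation p 0.00026, adjusted 0.0036; Spearman rho 0.600, permutation p 0.0122, adjusted 0.0347). Clec7a reached r = 0.762 (permutation p 0.00046, adjusted 0.0036; rho 0.681, permutation p 0.00352, adjusted 0.0117), and Lgals3 r = 0.712 (permutation p 0.00054, adjusted 0.0036; rho 0.762, permutation p 0.00061, adjusted 0.0061). For Gpnmb r was 0.609 (permutation p 0.00819, adjusted 0.0234), whereas its rho of 0.488 did not pass (permutation p 0.0496, adjusted 0.0902). Msr1 had r = 0.586 (permutation p 0.0146, adjusted 0.0365) and rho = 0.493 (permutation p 0.0471, adjusted 0.0902). Lipa, at r = 0.514, did not pass (permutation p 0.0344, adjusted 0.0688).

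The 2 mice farthest from the median of Adgre1 were HGI 4 and HGI 9. Without them r was 0.609 for Gpnmb, 0.608 for Trem2, 0.696 for Lgals3 and 0.650 for Clec7a, but 0.172 for Msr1, whose relation rests on those mice. By rank only Lgals3 of these still passed (rho 0.704, permutation p 0.00453, adjusted 0.0302), with rho 0.464 for Gpnmb, 0.418 for Trem2 and 0.539 for Clec7a (permutation, adjusted p 0.203, 0.222 and 0.136). Without HGI 9 and HGI 10 the same members stood at 0.641, 0.739, 0.680, 0.824 and 0.506, and Msr1 no longer passed (permutation, adjusted p 0.115). By rank Gpnmb (rho 0.596, permutation p 0.0211, adjusted 0.0604) and Trem2 (rho 0.539, permutation p 0.0396, adjusted 0.088) did not pass there either. In all, 5 of 10 members had r of at least 0.5 there, against 6.99% of all genes over the same 15 arrays. On the 8 arrays scanned first and the 9 scanned later, r was 0.724 and 0.615 for Gpnmb, 0.755 and 0.782 for Trem2, 0.726 and 0.754 for Lgals3, and 0.857 and 0.725 for Clec7a, and no member passed in either. Within LGI and within HGI, r was 0.394 and 0.713 for Gpnmb, 0.290 and 0.824 for Trem2, 0.760 and 0.715 for Lgals3, and 0.893 and 0.745 for Clec7a. Of the members 1 passed within LGI, Clec7a, and 1 within HGI, Trem2. For the dimmer Itgax probe r with Adgre1 was 0.717 (permutation p 0.00082), and for the brighter one no pooled r is read.

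Mest, an imprinted gene that follows the expansion of fat mass in mice, had a difference of 0.61 ± 0.24 (limma adjusted p 0.575). With Mest, 4 of 10 members had r of at least 0.5, against 4.86% of all genes, and 3 passed. These were Lgals3 at r = 0.702 (permutation p 0.00073, adjusted 0.00365; rho 0.767, permutation p 0.00057, adjusted 0.0061), Trem2 at 0.674 (permutation p 0.00337, adjusted 0.0135; rho 0.718, permutation p 0.00165, adjusted 0.00825) and Gpnmb at 0.613 (permutation p 0.00731, adjusted 0.0234; rho 0.748, permutation p 0.00093, adjusted 0.0062). Clec7a, at r = 0.530, missed the threshold by r (permutation p 0.0315, adjusted 0.0688) and passed by rho (0.676, permutation p 0.00323, adjusted 0.0117). Without LGI 2 and LGI 6, the mice farthest from the median of Mest, r was 0.715, 0.708 and 0.741 for Lgals3, Trem2 and Gpnmb. Without HGI 9 and HGI 10 it was 0.784, 0.765 and 0.630, and 5 of 10 members, now with Lipa (0.584), had r of at least 0.5, against 8.01% of all genes. On the arrays scanned first and later it was 0.728 and 0.711 for Lgals3, 0.660 and 0.764 for Trem2, and 0.720 and 0.687 for Gpnmb. Within LGI and within HGI it was 0.591 and 0.779 for Lgals3, 0.844 and 0.828 for Trem2, and 0.30 and 0.689 for Gpnmb. No member passed within LGI, where Trem2 had an adjusted permutation p of 0.111 and a rho of 0.619. In HGI, Lgals3 and Trem2 passed by r (permutation, adjusted p 0.0494 and 0.0292). Gpnmb did not pass there (permutation, adjusted p 0.0838), and its rho was 0.45.

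**Figure D5:**
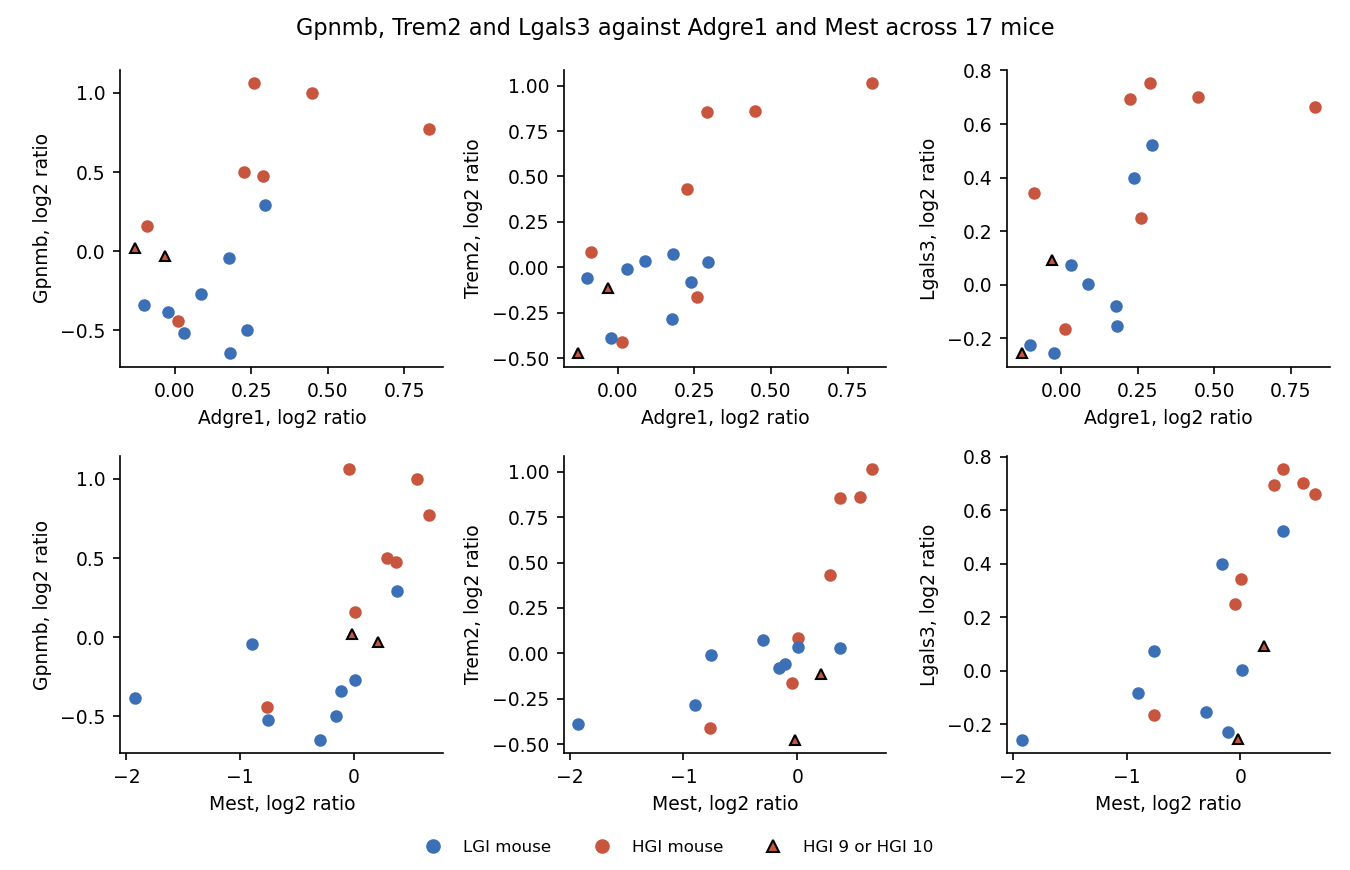
Log2 ratios of Gpnmb, Trem2 and Lgals3 (y axes) against those of Adgre1 (upper row, x axis) and Mest (lower row, x axis), with 1 point per mouse, blue for LGI, red for HGI and triangles for HGI 9 and HGI 10. Across 17 mice r with Adgre1 is 0.609, 0.769 and 0.712, and r with Mest is 0.613, 0.674 and 0.702, in that order of genes.

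With Adgre1 as a covariate the diet difference was 0.59 ± 0.15 for Gpnmb (limma adjusted p 0.507), 0.19 ± 0.13 for Trem2 and 0.21 ± 0.11 for Lgals3. With Mest as a covariate it was 0.49 ± 0.19 for Gpnmb (limma adjusted p 0.909), 0.04 ± 0.18 for Trem2 and 0.08 ± 0.14 for Lgals3. Both covariates were measured on the same arrays. Mest itself differed between the diets by 0.61 ± 0.24, and Adgre1 by 0.09 ± 0.11, which is within its SE. Over 20 of 21 genes that mark macrophages of all kinds, 19 had a difference above 0, against 52.6% of all genes. Of them 2 had an unadjusted p under 0.05, both higher in HGI, against 3.97% of all genes. In limma 0 passed, and the median difference was 0.08. With HGI 9 and HGI 10 left out the median was 0.17, and 5 had an unadjusted p under 0.05, all higher in HGI, against 5.04% of all genes. A difference above 0 was found there for 50.1% of all genes and again for 19 of these markers. Their mean level ranged from -0.23 to 0.02 in LGI and from -0.35 to 0.45 in HGI, with HGI 9 lowest, and its part in the members' differences was not tested beyond the covariate. The 2 genes were Cd84 (0.24 ± 0.07), a receptor of leukocytes, and Mpeg1 (0.39 ± 0.11), a pore-forming protein of macrophages (limma adjusted p 0.522 each). Of 10 markers of resident macrophages, 6 had a difference above 0 and none an unadjusted p under 0.05, with a median of 0.03, which was 0.14 without HGI 9 and HGI 10 (8 above 0, 1 with an unadjusted p under 0.05). Among other cells that can carry CD11c or Acp5, dendritic cells had 5 of 8 markers measured, none with an unadjusted p under 0.05. Xcr1, Itgae, Batf3 and Zbtb46 were well above background on all 17 arrays, and Clec9a and Ccr7 on none. Of 6 osteoclast markers none had an unadjusted p under 0.05. Of 10 adipocyte markers 8 had a difference below 0, 4 of them with an unadjusted p under 0.05, against 3.77% of all genes. Their median was -0.18. In the 15 mice without HGI 9 and HGI 10, 8 of these adipocyte markers were again below 0. Of these 1 had an unadjusted p under 0.05, against 2.75% of all genes, and the median was -0.14.

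Genes whose products work beside the members were followed through 3 lists, also chosen with earlier results of these data known. Of 22 companions, cathepsins, lipid handlers and other genes of lipid-laden macrophages, 21 were measured. Of these 16 had a difference above 0, against 52.6% of all genes, and 5 of them an unadjusted p under 0.05, against 3.97%. None was called, and the median was 0.16. The median was 0.25 without HGI 9 and HGI 10. There 10 were higher and 1 lower at an unadjusted p under 0.05, against 5.04% and 2.75% of all genes. Mmp12, macrophage elastase, differed by 0.47 ± 0.13 (limma adjusted p 0.522) but was well above background on only 2 LGI and 7 HGI arrays. Fabp5, a fatty acid carrier, differed by 0.26 ± 0.09, the lysosomal protease Ctsl by 0.20 ± 0.08, and Soat1, which esterifies cholesterol for storage, by 0.22 ± 0.09 (limma adjusted p 0.550, 0.597 and 0.610). Of the 21 companions 13 correlated with Gpnmb at r of at least 0.5, against 6.01% of all genes, and 11 did over deviations from the diet means, against 6.09%. Among the 20 measured markers of macrophages of all kinds, 11 did so by either measure, so the relation is not particular to the companions.

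Of 11 signalling partners of Trem2 and Clec7a, 9 were measured and all 9 had a difference above 0, against 52.6% of all genes. The smallest were only 0.0014 and 0.0017, the median was 0.04, and none had an unadjusted p under 0.05. Leaving out HGI 9 and HGI 10, the median was 0.13 and 8 were above 0, against 50.1% of all genes. Of the 9, 1 was then higher in HGI at an unadjusted p under 0.05, against 5.04% of all genes. The adaptor Tyrobp differed by 0.22 ± 0.14, the phospholipase Plcg2 by 0.16 ± 0.08 and the adaptor Lat2 by 0.16 ± 0.08. Of 20 genes of the MiT/TFE factors, which switch on lysosomal genes, and their targets, 13 had a difference above 0 and the median was 0.03. Without HGI 9 and HGI 10, 17 of the 20 did, against 50.1% of all genes, with a median of 0.05. None of the 20 passed an adjusted p of 0.05 in limma, and 3 of them correlated with Gpnmb at 0.5 or more, against 6.01% of all genes.

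Among genes outside the list, those with the highest Pearson r with Gpnmb over 17 arrays were Maoa (0.897), Sec23a (0.889), Sac3d1 (0.889), Mup4 (0.879) and Ctss (0.866). Maoa is monoamine oxidase A, Sec23a a coat protein of vesicles that leave the endoplasmic reticulum, and Ctss the lysosomal protease cathepsin S. Mup4 belongs to a family of near-identical major urinary proteins, and its probe may not tell them apart. Without HGI 9 and HGI 10 they were Maoa (0.958), Col5a2 (0.921), Tnip1 (0.919), Pclaf (0.917) and Fchsd2 (0.905). The dimmer Itgax probe, a member and so outside this ranking, was above all 5 of the first set and below Maoa in the second. Being the closest of 18133 genes, these values are a description and carry no test.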

How the data were processed

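The deposited files are scanner output of Agilent Feature Extraction, in version 9.1.3.1 per the file headers and 9.5.1.1 per the submitters' processing notes, with the mean intensity of every spot and the median of its surroundings for Cy5 and Cy3. A table of log2 values of 19836 probes, which the authors deposited with unstated scale, centring and filter, was an alternative only.

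Each mouse's 500 ng of RNA was copied and labelled with both dyes, per the labels, and each Cy5 product was hybridized against the pooled Cy3 products. The design names 19 arrays, of which 2 failed the authors' quality control, leaving 8 LGI and 9 HGI. Since all mice carry the same dye, a common dye bias drops out between the diets.

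Intensities were read by the package data.table (version 1.17.8) and analysed in limma 3.58.1 under R 4.3.3: normexp background correction with offset 50, then loess within each array, with control and outlier-flagged spots at weight 0 and left out. Of 43790 spots 2256 were controls. Spots of a probe were averaged, and testing required Cy5 well above background on 8 arrays or more (25514 of 41174 probes). The brightest such probe stands for a gene. Probes were named through RefSeq for GRCm38.p6 (23374 by accession, 6733 by symbol, 2919 by an older symbol, 8148 kept the name in the file). No build is stated for the array, and the coordinates printed are those of the RefSeq windows. Diets were compared by lmFit and eBayes over 17 arrays, adjusted by Benjamini-Hochberg over 18133 genes with a threshold of 0.05. The fit was tested on simulated data. Permutations ran in Python 3.11.15 with SciPy 1.17.1, over 100000 resamples, or exactly where there were 8 or 9 mice, and plots in matplotlib 3.10.9.

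The members and lists were chosen with earlier results of these data known. Named genes are the members, Adgre1, Mest, the 5 genes most correlated with Gpnmb over 17 and over 15 arrays (no members, no clone names), and up to 4 genes of a list by smallest unadjusted p. The values of 1 gene that this rule names are not reported here. The alternatives changed the background correction, normalization, filter, probe choice, samples, blocks and covariates. The 17 arrays were scanned in 1 run, and the first 8 and later 9 are an order of scanning, not a known batch.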

Additional observations from a re-analysis of the deposited data

Results flagged for a closer look

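In 26 combinations of diet and gene, of which chance would single out about 1 in 20, a gap test (Dixon's, at the 95% level) set 3 mice apart from the rest of their diet. Itgax on its brighter probe was at 1.37 in LGI 8, and the next LGI mouse was at -0.576. Lipa was at 0.255 in LGI 5, with the next LGI mouse at -0.0482. Mest was at -0.764 in HGI 7, with the next HGI mouse at -0.0474, and HGI 7 also had the lowest Gpnmb of its diet, at -0.44.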

How the results depend on the processing

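The difference of Gpnmb was above 0 in every alternative tried, from 0.288 in the authors' values (limma adjusted p 0.700) to 1.23 in the scanner software's processed signals (limma adjusted p 0.672), and 0.608 to 0.795 when 1 mouse was left out, and it never passed. Leaving out 1 mouse gave Itgax 0.074 to 0.566, Trem2 0.22 to 0.41, Lgals3 0.26 to 0.38, Cd9 0.15 to 0.39, Clec7a 0.12 to 0.25, Lipa 0.05 to 0.18, Msr1 0.0066 to 0.10, Acp5 -0.14 to -0.02, Cd63 -0.15 to -0.06, Adgre1 0.01 to 0.13 and Mest 0.40 to 0.73. Itgax was at -0.20 without HGI 9 and HGI 10, -0.28 without these and LGI 9 (a choice made after seeing the data), -0.0822 on the later 9 arrays and -0.0289 with array weights. Acp5 was at 0.0123 without HGI 9 and HGI 10 and 0.0262 on the first 8 arrays, Lipa at -0.0079 on the later 9, Msr1 at -0.085 with Cy5 alone, and Adgre1 at -0.0205 on the first 8 and -0.0304 with Mest as covariate. The count of all genes called was 1 with Cy5 alone, 1 with array weights and 0 to 3 when 1 mouse was left out, the 3 being without LGI 7. Members correlated with Adgre1 numbered 1 within LGI, 1 within HGI, 0 on the first 8 arrays, 0 on the later 9, 3 with processed signals and 2 with the authors' values, and those with Mest 0 within LGI, 0 on the first 8 and 0 on the later 9. These subsets hold 8 or 9 mice. Correlations that turned were those of Acp5 with Adgre1 (-0.114 without HGI 9 and HGI 10, -0.0334 without the 2 farthest mice, -0.23 within LGI, -0.213 on the later 9), Acp5 with Mest (0.182), Cd63 with Adgre1 (0.254) and Cd63 with Mest (0.0186), all 3 under median centring, Cd9 with Mest (-0.0031 without the 2 farthest, -0.204 within HGI), Itgax, whose brighter probe has clustered values, with Adgre1 (0.717 on the dimmer probe, an added choice) and with Mest (-0.065 within HGI), and Msr1 with Mest (-0.213 within LGI). The cause of these changes was not tested. The labels do not say whether replicate numbers pair the mice, and 7 shared numbers are too few to settle it. Of these 7, 3 had deviations correlated above 0.1 (-0.379 to 0.261 over all 7), and 2 correlated best with their own number. With the number as a replicate block over 14 arrays Gpnmb was at 0.659 (limma adjusted p 0.751), and at 0.659 without it (limma adjusted p 0.744), and neither called a gene. On these 14 arrays Clec7a was at 0.0383, and over all alternatives it ran from 0.0036 to 0.36. Median centring gave 58.9% of genes a difference above 0, and no scaling moved their median by over 0.1. Aquantile leaves log ratios as they are by construction. A slide block was not run, since the headers give each array a code of its own, and Msr1 could not be followed in the authors' values or among probes detected on all arrays.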
